A study of Mus musculus with 4 samples.

Results

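The genes of the hypoxia-inducible factor (HIF) pathway were followed in activated mouse CD8+ T cells with and without NaBu. NaBu usually stands for sodium butyrate, the salt of a bacterial fermentation product that is known to inhibit histone deacetylases. The 10 genes were taken by symbol from the 17559 genes in the deposited files, with earlier results of these data known. They were *Hif1a*, *Epas1* and *Arnt* (HIF subunits), *Vhl*, the prolyl hydroxylase genes *Egln1*, *Egln2* and *Egln3*, the asparaginyl hydroxylase gene *Hif1an*, and the target genes *Vegfa* and *Bnip3*. All 10 were listed in all 4 libraries and all 10 passed the filter on low counts. Both groups came from C57BL/6 mice of OT-I genotype, whose transgenic T cell receptor recognizes an ovalbumin peptide, and the tissue is labelled LN. Magnetic depletion of other cells had left a purity above 95%, and all cells were stimulated for 2 d through CD3 (plate-bound antibody, 1 µg/ml) and CD28 (antibody at 2 µg/ml) in the presence of IL-2 (10 ng/ml) and then kept for 2 d in IL-2 alone. The control group (2 libraries) received a control treatment and the NaBu group (2 libraries) 1 mM NaBu for 12 h. The labels give neither the age or number of the animals nor the oxygen tension of the cultures, and they do not say whether libraries 1 and 2 came from separate cultures. The p-values therefore reflect no more than the spread of these libraries, which may be technical.

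HIF is a transcription factor made of an oxygen-regulated alpha subunit (HIF-1 alpha from *Hif1a*, HIF-2 alpha from *Epas1*) and the constitutive beta subunit ARNT. Where oxygen is available, the prolyl hydroxylases PHD2, PHD1 and PHD3, encoded by *Egln1*, *Egln2* and *Egln3*, hydroxylate the alpha subunit, the VHL ubiquitin ligase then marks it for degradation, and FIH, encoded by *Hif1an*, blocks its binding of coactivators. In CD8+ T cells HIF-1 is also induced by T cell receptor and cytokine signals in normal oxygen and is known for its control of glycolysis and effector genes. Since HIF-1 alpha is regulated largely as a protein, transcript levels are not a measure of its activity.

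The promoters of 5 of the genes are shown because these are the genes that differed most between the groups in each direction, among those with a sequence in the table, together with *Bnip3*, a gene known to be induced by HIF through its promoter. Each line gives the 250 bases before the RefSeq start site (GRCm38.p6, the assembly also called mm10), read along the gene. Capitals mark the HIF-binding core ACGTG or GCGTG on either strand, and a palindromic CACGTG counts as 2 matches.
Hif1a (chr12:73907617-73907866, plus strand): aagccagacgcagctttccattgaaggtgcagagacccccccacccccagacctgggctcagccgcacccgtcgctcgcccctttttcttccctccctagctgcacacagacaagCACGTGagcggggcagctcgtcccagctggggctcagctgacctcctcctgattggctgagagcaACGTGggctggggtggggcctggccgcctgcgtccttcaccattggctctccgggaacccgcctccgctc
Vhl (chr6:113623744-113623993, plus strand): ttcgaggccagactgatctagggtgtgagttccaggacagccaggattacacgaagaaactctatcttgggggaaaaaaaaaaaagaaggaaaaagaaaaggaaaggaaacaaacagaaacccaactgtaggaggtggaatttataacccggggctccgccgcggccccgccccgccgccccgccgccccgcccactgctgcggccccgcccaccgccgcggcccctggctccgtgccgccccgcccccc
Egln3 (chr12:54203875-54204124, minus strand): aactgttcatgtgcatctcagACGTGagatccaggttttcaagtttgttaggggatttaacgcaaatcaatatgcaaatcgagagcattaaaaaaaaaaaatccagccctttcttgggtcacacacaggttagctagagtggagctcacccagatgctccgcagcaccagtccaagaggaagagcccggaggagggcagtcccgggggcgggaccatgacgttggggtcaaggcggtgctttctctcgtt
Bnip3 (chr7:138909507-138909756, minus strand): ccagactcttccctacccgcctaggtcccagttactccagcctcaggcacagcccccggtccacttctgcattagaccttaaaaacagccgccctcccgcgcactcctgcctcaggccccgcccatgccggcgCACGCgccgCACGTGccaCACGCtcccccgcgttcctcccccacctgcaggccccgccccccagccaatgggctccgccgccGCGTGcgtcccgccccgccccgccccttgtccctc
Egln2 (chr7:27166803-27167052, minus strand): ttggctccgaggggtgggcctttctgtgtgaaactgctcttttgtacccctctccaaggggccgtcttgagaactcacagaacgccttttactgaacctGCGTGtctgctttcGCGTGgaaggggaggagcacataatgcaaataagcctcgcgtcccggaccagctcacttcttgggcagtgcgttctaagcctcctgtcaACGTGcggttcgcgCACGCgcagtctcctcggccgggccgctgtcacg
The *Hif1a* start used in the table lies inside the gene's full RefSeq span. The window before the start held 3 matches in *Hif1a*, 1 in *Egln3*, 5 in *Bnip3*, 4 in *Egln2* and 0 in *Vhl*. With the 50 bases after the start included, *Egln2* had 6 matches, and the other shown genes had no further ones. RefSeq windows were found for 9 of the 10 genes, all but *Epas1*, and 7 of these had a match in at least 1 window. *Vegfa* counts among the 7 only through a start inside the gene (window 46025114 to 46025413, 2 matches). Its window at the start of the gene's full span (46032328 to 46032627) had 0. By window, 8 of 11 (72.7%) held a match, against 61.4% of the 13073 windows of tested genes and 43.8% of all 32851. A match is a description of the letters in the window and does not show binding, and a window without one shows nothing about HIF.

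Expected counts per library summed to 19857701 to 20548571, and 12943 genes were tested. The cells carried the markers of CD8+ T cells, with 7 of 8 markers listed, *Cd8a* at an FPKM (fragments scaled to transcript length and to library size) of 118.38 and 115.87 in control cells against 93.88 and 96.96 after NaBu, and *Cd8b1* at 217.85, 215.13, 155.14 and 155.16. The 7 listed markers summed to 1814.44 and 1750.05 FPKM in control cells and 1642.87 and 1642.76 after NaBu, with 6 called lower and 1 higher, *Cd3g*, which went from 407.01 and 374.69 to 556.7 and 554.5. Calls are those of the edgeR test described below, by which 34.5% of all genes tested were higher and 34.1% lower. Each marker list is too short to read against these shares. Of 10 endothelial and stromal markers, from cell types in which *Epas1* and *Vegfa* are usual, 7 are listed in the files, with 21.1 and 22.3 FPKM in sum in control cells and 19.58 and 18.72 in NaBu. Most of it was *Pecam1*, which T cells also express, while *Cdh5* was at or below 0.01 and *Tek*, *Emcn* and *Pdpn* are among the genes not listed. *Pdgfrb*, a pericyte marker, went from 0.05 and 0.1 to 1.51 and 1.2. *Col1a1* also rose, from 0.04 and 0.11 to 0.54 in both NaBu libraries. *Pdgfra* was at or below 0.01 in all libraries, and *Col1a2* went from 0.1 and 0.09 to 0.09 and 0.15. Of the 5 endothelial and stromal markers tested, 3 were called higher, 1 lower and 1 was not called. The 3 were *Kdr*, *Col1a1* and *Pdgfrb*, each at or below an FPKM of 0.11 in the controls. For genes so near 0 a call in the other direction was hardly possible. Of 13 myeloid and dendritic markers 10 are listed, with a sum of 10.67 and 10.49 in control cells against 21.77 and 23.43 after NaBu, and *Lyz2*, *Csf1r* and *S100a8* are not listed. Of the 6 that were tested, 4 were called higher, 1 lower and 1 was not called. *Itgam* went from 0.45 in both controls to 4.83 and 3.79, and *Ly6g* from 4.21 and 4.09 to 8.31 and 10.9. The other markers called higher were *Mpeg1*, from 0.2 and 0.39 to 1.96 and 1.86, and *Itgax*, from 2.24 and 2.42 to 4.24 and 4.66. *Xcr1* fell from 2.09 and 1.94 to 0.87 and 0.73. The sum of the 3 listed of 5 B cell markers was 5.73 and 4.07 against 2.62 and 1.96, and that of 3 CD4 T cell markers was 21.08 and 19.36 against 26.97 and 27.18, nearly all of it *Zbtb7b*. *Cd4* itself went from 0.02 and 0.03 to 0.66 and 0.65. The part of other cells in the results below was not tested. In bulk RNA, fewer cells expressing a gene cannot be told apart from less of its RNA per cell.

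Of the 10 genes, 6 were higher after NaBu, 2 were lower and 2 were not called by the quasi-likelihood test of edgeR (Benjamini-Hochberg over all genes tested, 0.05). Across all genes tested, 34.5% were called higher and 34.1% lower, 68.6% in all, so 8 called genes of 10 are near the background share. The median log2 fold change of the 10 genes was 0.35, against 0.005 for all genes tested. The FPKM of the groups did not overlap for any of the 10, which also held for 84.0% of all genes tested. Only *Hif1a* and *Vhl* exceeded a fold change of 1.5 as the null in edgeR's glmTreat, which 29.2% of all genes did. Fold changes here are on the scale of TMM-normalized counts, on which they are slightly lower than the ratios of the deposited FPKM.

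**Figure D1:**
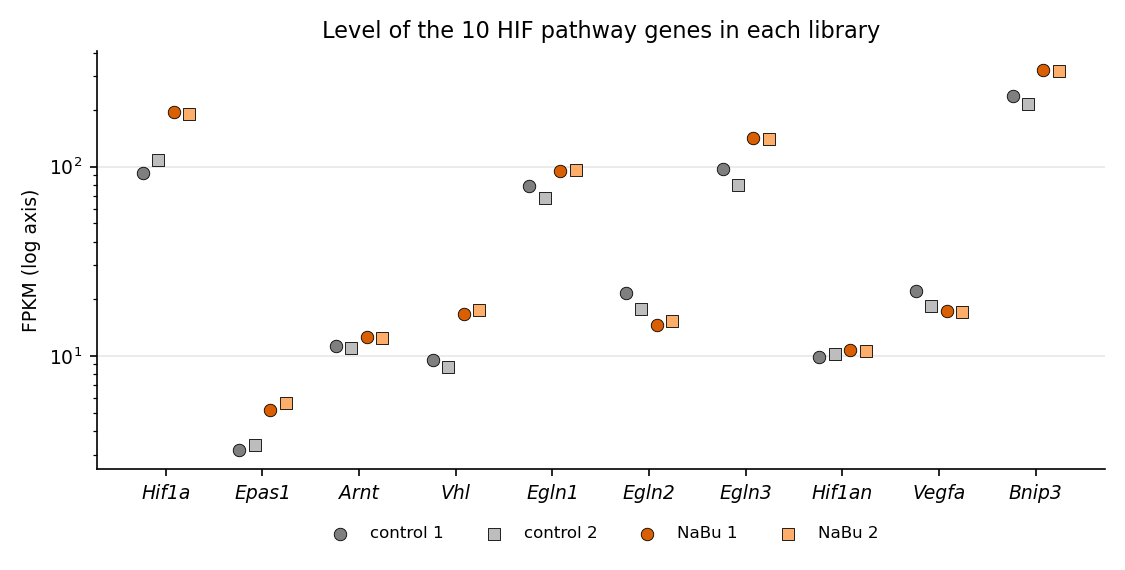
FPKM of each of the 10 genes (log axis) in the 4 libraries, one point per library. The NaBu points lie above both controls for *Hif1a*, *Epas1*, *Vhl*, *Egln1*, *Egln3*, *Bnip3* and also, by less, for *Arnt* and *Hif1an*, which did not pass the test, and below both for *Egln2* and *Vegfa*.

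Among the HIF subunits, the alpha subunit genes rose and the beta subunit gene did not pass the test. *Hif1a* (gene 15251, mm10 chromosome 12, 73901324 to 73947554) stood at 92.59 FPKM in control 1 and 107.63 in control 2, and at 193.61 and 189.79 in the NaBu libraries. Both NaBu libraries lay far above both controls, and the NaBu libraries were closer to each other than the controls were. The group means were 100.1 ± 10.6 and 191.7 ± 2.7 (SD, n = 2; all further ± values on FPKM or shares are of this kind), a 1.79-fold rise (log2 fold change 0.84 ± 0.08 SE, edgeR adjusted p = 3.82e-06). Without control 1 the log2 fold change was 0.74 and without control 2 it was 0.95. *Epas1* (gene 13819, chromosome 17, 86753864 to 86833410), whose product is best known from endothelium, stood at 3.17 and 3.37 FPKM in control cells and at 5.19 and 5.65 after NaBu. It was low in all libraries but without overlap, and it rose 1.55-fold (log2 fold change 0.63 ± 0.09 SE, edgeR adjusted p = 0.000105). Its expected counts were not whole although a single transcript is listed, so some of its reads were shared with another gene. The expected counts of *Arnt* and *Vegfa* were not whole either, and the same limit holds for them. *Arnt* (gene 11863, chromosome 3, 95434367 to 95497240) stood at 11.26 and 10.95 FPKM in control cells and at 12.53 and 12.46 after NaBu (log2 fold change 0.07 ± 0.07 SE, edgeR adjusted p = 0.356). The FPKM values of *Arnt* did not overlap, but the difference did not pass the test on the TMM scale, and it was called only when library totals alone set the scale (log2 fold change 0.17, edgeR adjusted p = 0.0435). Per length, *Hif1a* made up 96.8% ± 0.194 of the summed FPKM of both alpha subunit genes in the controls and 97.2% ± 0.198 in NaBu.

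Of the genes that mark HIF alpha for degradation, *Vhl* and 2 prolyl hydroxylase genes rose and the other fell. *Vhl* (gene 22346, chromosome 6, 113623994 to 113631634), encoding the substrate receptor of the ubiquitin ligase, stood at 9.55 and 8.71 FPKM in control cells and at 16.72 and 17.49 after NaBu. Both NaBu values stood well clear of the controls, a 1.75-fold rise (log2 fold change 0.81 ± 0.08 SE, edgeR adjusted p = 8.32e-06). *Egln3* (gene 112407, chromosome 12, 54178981 to 54203874), encoding PHD3 and itself a known HIF target, stood at 96.54 and 79.5 FPKM in control cells and at 140.69 and 139.52 after NaBu. The controls differed from each other while the NaBu libraries nearly coincided. *Egln3* rose 1.49-fold (log2 fold change 0.57 ± 0.08 SE, edgeR adjusted p = 0.000131), with a log2 fold change of 0.72 without control 1 and 0.44 without control 2. *Egln1* (gene 112405, chromosome 8, 124908587 to 124949254), encoding PHD2, the main HIF hydroxylase in most cells, stood at 79.27 and 68.54 FPKM in control cells and at 95.06 and 95.81 after NaBu. Its rise was the smallest that passed, 1.21-fold (log2 fold change 0.27 ± 0.07 SE, edgeR adjusted p = 0.00719), not much above the difference of 0.21 between the controls. It did not pass without NaBu 1 (edgeR adjusted p = 0.0763), without NaBu 2 (0.0901) or without the filter on low counts (0.0558). *Egln2* (gene 112406, chromosome 7, 27158658 to 27166802), encoding PHD1, was the hydroxylase gene that fell. Its level was 21.53 and 17.77 FPKM in control cells and 14.59 and 15.28 after NaBu (log2 fold change -0.49 ± 0.1 SE, edgeR adjusted p = 0.00109). Without the filter on low FPKM, limma did not call it (adjusted p = 0.0682).

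**Figure D2:**
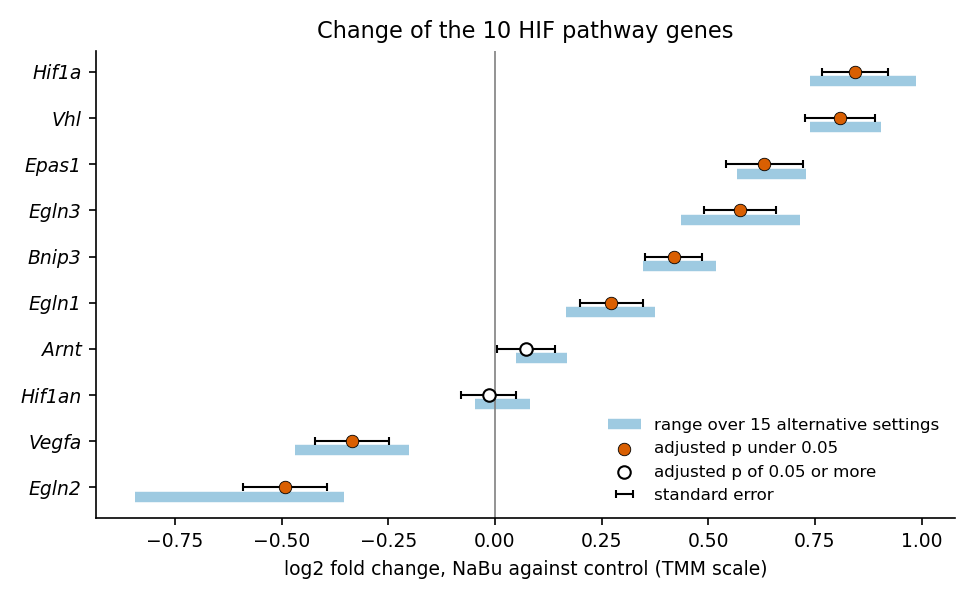
Log2 fold change of each gene, NaBu against control, with its standard error (black bars), the adjusted p under or over 0.05 (filled or open points) and the range over 15 alternative settings (blue bars). The blue bars of the 8 called genes stay on 1 side of 0, and that of *Hif1an* spans it.

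Together the prolyl hydroxylase genes went from 197.34 and 165.81 FPKM in sum in control cells to 250.34 and 250.61 after NaBu, and their proportions shifted. *Egln2* made up 10.8% ± 0.137 of the sum in the controls and 5.96% ± 0.19 in NaBu. *Egln3* went from 48.4% ± 0.689 to 55.9% ± 0.373, and *Egln1* from 40.8% ± 0.825 to 38.1% ± 0.183. The shares of the control libraries were close to each other although their levels were not, and the shift in shares was larger than the spread between libraries for each of the genes. No test of the shares was run; the smallest two-sided p that an exact permutation of 2 against 2 libraries allows is 0.333. *Hif1an* (gene 319594, chromosome 19, 44562854 to 44576274), encoding FIH, stood at 9.87 and 10.25 FPKM in control cells and at 10.74 and 10.54 after NaBu. On the TMM scale its log2 fold change was -0.01 ± 0.06 (SE), with an edgeR adjusted p of 0.849, and its sign depended on the scale, being 0.08 with library totals. It was the only one of the 10 genes whose difference between groups was smaller than that between the control libraries.

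**Figure D3:**
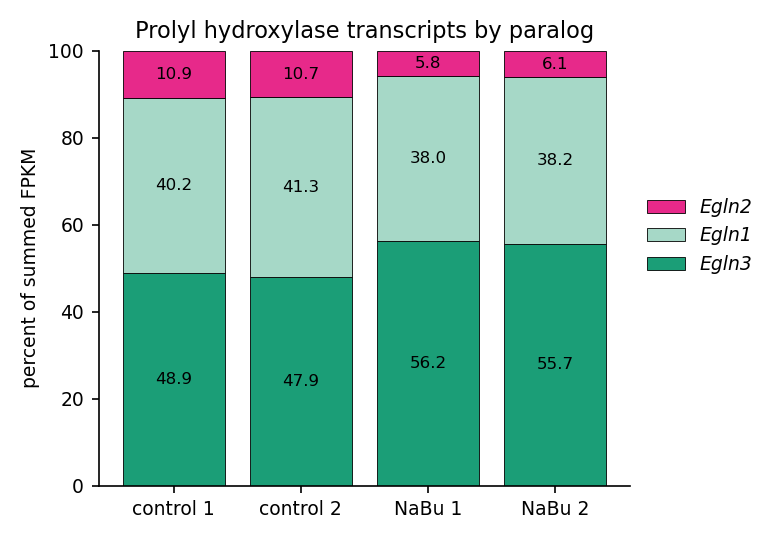
Percent of the summed FPKM of *Egln1*, *Egln2* and *Egln3* taken by each gene, one stacked bar per library. *Egln2* takes 10.9% and 10.7% in the controls and 5.8% and 6.1% in NaBu, and *Egln3* 48.9% and 47.9% against 56.2% and 55.7%.

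The target genes moved in opposite directions. *Bnip3* (gene 12176, chromosome 7, 138890836 to 138909506), encoding a mitochondrial receptor for mitophagy of the BCL-2 family, stood at 235.92 and 214.41 FPKM in control cells and at 324.56 and 319.33 after NaBu. It was the most abundant of the 10 genes per length, above 97.9% of all genes tested in the controls, and it rose 1.34-fold (log2 fold change 0.42 ± 0.07 SE, edgeR adjusted p = 0.000234). *Vegfa* (gene 22339, chromosome 17, 46016993 to 46032377), encoding the angiogenic factor VEGF-A, stood at 21.99 and 18.31 FPKM in control cells and at 17.25 and 17.05 after NaBu. The lower control lay near the NaBu libraries, and *Vegfa* fell 1.26-fold (log2 fold change -0.33 ± 0.09 SE, edgeR adjusted p = 0.00557). The difference between the controls was 0.26 on the log2 scale. The *Vegfa* call was lost without NaBu 1 (edgeR adjusted p = 0.0552), without NaBu 2 (0.0715) and in limma on log2(FPKM + 1) (adjusted p = 0.0778), and its log2 fold change was -0.20 without control 1 and -0.47 without control 2.

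By level per length, the order in the controls was *Bnip3*, *Hif1a*, *Egln3*, *Egln1*, *Vegfa*, *Egln2*, *Arnt*, *Hif1an*, *Vhl* and *Epas1*. In that order *Hif1a* and *Egln3* overlapped between libraries, as did *Vegfa* and *Egln2*, and the other neighbours did not. In NaBu the order was *Bnip3*, *Hif1a*, *Egln3*, *Egln1*, *Vegfa*, *Vhl*, *Egln2*, *Arnt*, *Hif1an* and *Epas1*, and the neighbours that overlapped were *Vegfa* and *Vhl*. *Vhl* thus moved from the ninth place to the sixth. The tested genes nearest to *Hif1a* by Euclidean distance of log2(FPKM + 1) over the 4 libraries were *Il12rb2* (distance 0.217), *Myc* (0.294) and *Il12rb1* (0.297). With 2 groups of 2, this measure reflects a like level and a like fold change only.

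Partners and regulators of HIF other than the 10 genes moved both ways, with 6 of 18 tested genes higher, 7 lower and 5 not called, and a median log2 fold change of 0.04. These counts are near the shares of all genes tested (34.5% higher, 34.1% lower). The genes of elongin C and elongin B, which link VHL to its cullin and are listed as *Tceb1* and *Tceb2*, rose 1.34-fold and 1.31-fold. *Tceb1* went from 36.71 and 44.87 FPKM to 53.45 and 54.0, and *Tceb2* from 207.83 and 238.54 to 287.36 and 337.15. Neither group of values overlapped the other. *Rbx1*, the RING subunit of the same ligase, fell with a log2 fold change of -0.24 (edgeR adjusted p = 0.021), and the scaffold gene *Cul2* did not pass (log2 fold change -0.15, edgeR adjusted p = 0.128). *Hif3a*, encoding a further alpha subunit, was low and rose 1.39-fold, from an FPKM of 1.04 and 0.89 to 1.34 and 1.52. Among the coactivators, *Crebbp*, encoding CBP, fell 2.02-fold, from 9.76 and 10.21 to 5.28 and 5.29, whereas *Ep300*, encoding the related p300, rose 1.12-fold (edgeR adjusted p = 0.0343). *Cited2*, encoding an inhibitor that competes with HIF for these coactivators, had a log2 fold change of 0.03 ± 0.07 (SE) and did not pass (edgeR adjusted p = 0.72). *Hsp90ab1*, encoding a chaperone of HIF-1 alpha, fell 1.61-fold from an FPKM of 1594 and 1667 to 1078 and 1082. *Siah1b*, encoding a ligase of the SIAH family that acts on prolyl hydroxylases, fell 2.26-fold, but it is close in sequence to *Siah1a*, between which the counting could have divided reads. Without NaBu 2, fewer of the 18 were called higher, and fewer of all genes tested were called as well.

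The glycolytic genes known as HIF-1 targets divided, with 7 of 20 higher, 5 lower and 8 not called, and a median log2 fold change of 0.16. The share called higher is close to the 34.5% of all genes tested, and the share called in either direction is below the 68.6%. *Pfkfb4*, a regulator of phosphofructokinase, rose 2.62-fold from a low level (1.89 and 1.33 FPKM in control cells, 4.35 and 4.66 in NaBu). The glucose transporter gene *Slc2a3* rose 2.45-fold, from 132.37 and 108.69 to 317.43 and 314.98, and the hexokinase gene *Hk2* 2.17-fold, from 40.96 and 33.75 to 86.12 and 87.01. Of the other enzymes, *Gpi1* rose 1.59-fold, from 720.49 and 606.01 to 1133 and 1125, and *Aldoc* 1.5-fold, whereas *Pfkl* fell 2.23-fold, *Tpi1* 2.16-fold and *Eno1* 1.43-fold, the last from an FPKM of 2892 and 2427 to 1961 and 2010. *Ldha*, encoding lactate dehydrogenase A, fell 1.23-fold (edgeR adjusted p = 0.00511), and *Pgk1*, a classical HIF-1 target, had a log2 fold change of 0.00 ± 0.07 (SE, edgeR adjusted p = 0.959). *Slc2a1*, encoding the transporter GLUT1, stood at 191.49 and 150.87 FPKM in control cells and at 207.99 and 208.15 after NaBu and did not pass (edgeR adjusted p = 0.109). These counts depended on the library kept and on the scale. Without control 1 more of them were called higher, and without control 2 more were called lower. On library totals 11 were higher and 5 lower. That scale also moved all 12943 genes tested, from 4471 higher and 4413 lower to 5175 higher and 3720 lower.

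Of 43 other HIF targets, 38 were tested, of which 20 were higher, 10 lower and 8 not past the test, beside 34.5% higher and 34.1% lower among all genes tested. Their median log2 fold change was 0.26, against 0.005 for all genes. The largest fold was that of *Cox4i2*, a subunit of cytochrome c oxidase known to be induced by low oxygen. It had 2 counts over both controls and 81 over both NaBu libraries, a ratio of 41.7 on library totals with an exact 95% interval of 11.2 to 350.0 that covers counting error only, and its FPKM reached 2.58 and 3.22. *Cox4i2* passed the filter on low counts only through the NaBu libraries, so a call in the other direction was hardly possible. *Rragd*, a GTPase of amino acid sensing, rose 4.93-fold from 0.33 in both controls to 1.77 and 1.72. The 4 listed genes of collagen-modifying hydroxylases, which like the EGLN enzymes use oxygen and oxoglutarate, rose. *Plod1* rose 4.53-fold, from 2.93 and 2.81 to 13.93 and 13.91, *P4ha2* 3.11-fold, from 16.87 and 12.7 to 48.25 and 50.09, *Plod2* 1.54-fold and *P4ha1* 1.47-fold. *Ddit4*, an inhibitor of mTORC1, rose 1.99-fold and *Ndrg1* 2.1-fold. Lower targets included *Stc2*, encoding stanniocalcin 2, which fell 2.84-fold from 48.17 and 42.43 to 17.12 and 16.97, *Mif*, encoding a cytokine, which fell 1.88-fold, and *Vldlr*, a lipoprotein receptor gene, which fell 2.09-fold from 1.75 and 1.24 to 0.8 and 0.74. The carbonic anhydrase gene *Car9*, a common marker of HIF-1 activity, was low (1.06 and 1.05 FPKM in control cells, 1.57 and 1.16 in NaBu) and did not pass (edgeR adjusted p = 0.323), and *Ankrd37* did not pass either (edgeR adjusted p = 0.141).

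**Figure D4:**
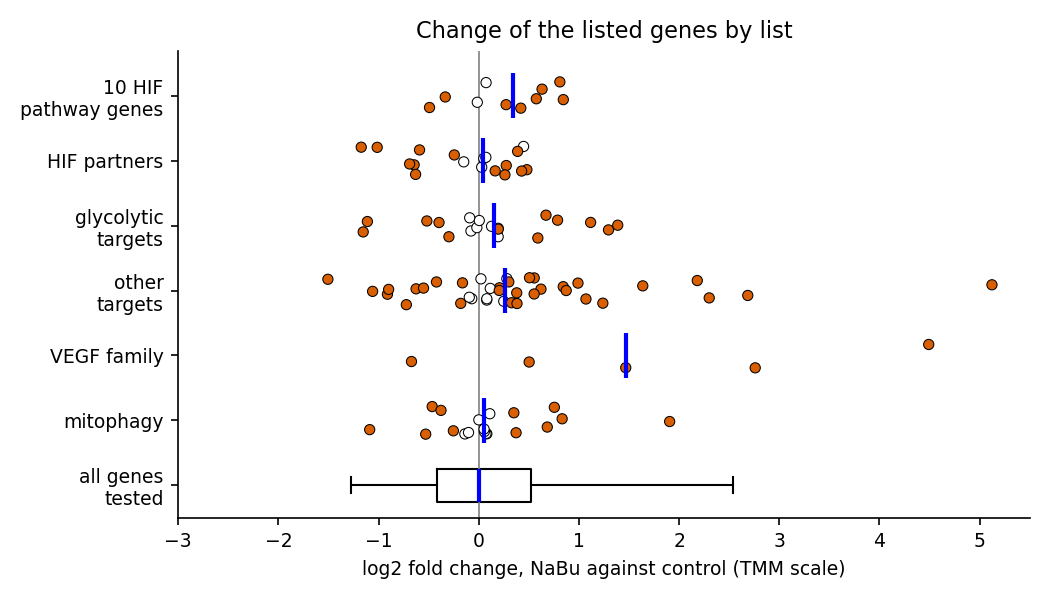
Log2 fold change, NaBu against control, of each tested gene by list (filled points have an adjusted p under 0.05, blue lines are medians), above a box of all 12943 genes tested (quartiles, with whiskers at the 5th and 95th percentiles). Genes higher and lower after NaBu occur in every list, and the medians of the target lists are 0.16 and 0.26.

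Other genes of the VEGF family were mostly at or near 0, with 5 of 9 tested, of which 4 were higher and 1 lower. Among all genes tested, 34.5% were called higher and 34.1% lower, and 5 genes are too few to read against these shares. *Vegfb*, the ligand gene related to *Vegfa*, also fell, 1.59-fold, from an FPKM of 26.0 and 24.85 to 15.93 and 18.09. *Flt4*, encoding the receptor VEGFR3, rose 22.5-fold, from 0.27 and 0.33 to 7.47 and 7.07 (log2 fold change 4.49 ± 0.12 SE, edgeR adjusted p = 1.8e-09). *Nrp1*, encoding the coreceptor neuropilin 1, rose 1.42-fold, from 2.15 and 2.61 to 3.67 and 3.54. *Kdr* and *Nrp2* were also called higher but stayed below an FPKM of 1 in all libraries, *Kdr* at 0.08 and 0.06 in the controls and 0.47 and 0.56 in NaBu. *Kdr* had 16 counts over both controls and 114 over both NaBu libraries, and *Nrp2* 18 and 56. Both passed the filter on low counts only through the NaBu libraries, so a call in the other direction was hardly possible. *Flt1*, encoding VEGFR1, was at or below 0.01 in all libraries and was not tested.

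Genes of mitophagy, the process in which BNIP3 acts, also moved both ways, with 6 of 19 tested genes higher, 5 lower and 8 not called, and a median log2 fold change of 0.06. Both counts are below the shares of all genes tested (34.5% higher, 34.1% lower). *Bnip3l*, encoding NIX, the closest relative of BNIP3, stood at 60.84 and 60.64 FPKM in control cells and at 71.57 and 65.74 after NaBu and did not pass (log2 fold change 0.08 ± 0.06 SE, edgeR adjusted p = 0.281). The genes of the ubiquitin-like proteins that the receptors bind were higher, with *Map1lc3a* 3.75-fold, *Map1lc3b* 1.78-fold, *Gabarapl1* 1.69-fold, *Gabarapl2* 1.61-fold and *Gabarap* 1.29-fold. *Map1lc3b* went from 40.13 and 36.55 to 73.46 and 72.48. The autophagy receptor gene *Sqstm1*, encoding p62, rose 1.27-fold, from 129.06 and 126.27 to 175.92 and 172.32. Among the 5 lower genes were *Pink1*, the kinase that recruits parkin, which fell 1.44-fold, and the receptor genes *Fundc1* (1.38-fold) and *Fkbp8* (1.3-fold). *Calcoco2*, also among the 5, had 31 counts over both controls and 15 over both NaBu libraries. It passed the filter on low counts only through the controls, so a call in the other direction was hardly possible. Without NaBu 1 or without NaBu 2, fewer mitophagy genes were called lower, and fewer of all genes tested were called as well.

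The control libraries differed from each other in the target lists. Between control 1 and control 2, all 20 glycolytic targets were higher in control 1, with a median difference of 0.24 and a range of 0.13 to 0.5 on the log2 CPM scale after TMM. Of the other targets 32 of 38 were higher in control 1 (median 0.13), and of the 10 genes 7 were (median 0.13), among them *Egln3* (0.28), *Egln2* (0.27), *Vegfa* (0.26), *Egln1* (0.21) and *Bnip3* (0.14). Such a shift was not seen in the HIF partners (7 of 18 higher in control 1, median -0.06), the VEGF family (2 of 5, median -0.25) or the mitophagy genes (12 of 19, median 0.02). *Hif1a* was lower in control 1, with a difference of -0.21. Over all genes tested, 50.4% were higher in control 1 and the median difference was 0.002. Between NaBu 1 and NaBu 2 the median difference was 0.0 for the glycolytic and the other targets, and 10 of 20 and 19 of 38 were higher in NaBu 1. For 9 of the 10 genes the change after NaBu was larger than the difference between the controls, and for 12 of the 20 glycolytic targets it was. The 9 include *Arnt*, which was not called. The share of all genes tested for which this held was not counted. Their median absolute log2 fold change was 0.463, against a median absolute difference between the controls of 0.123. The part of this difference between the controls in the calls was not tested beyond leaving out each library.

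**Figure D5:**
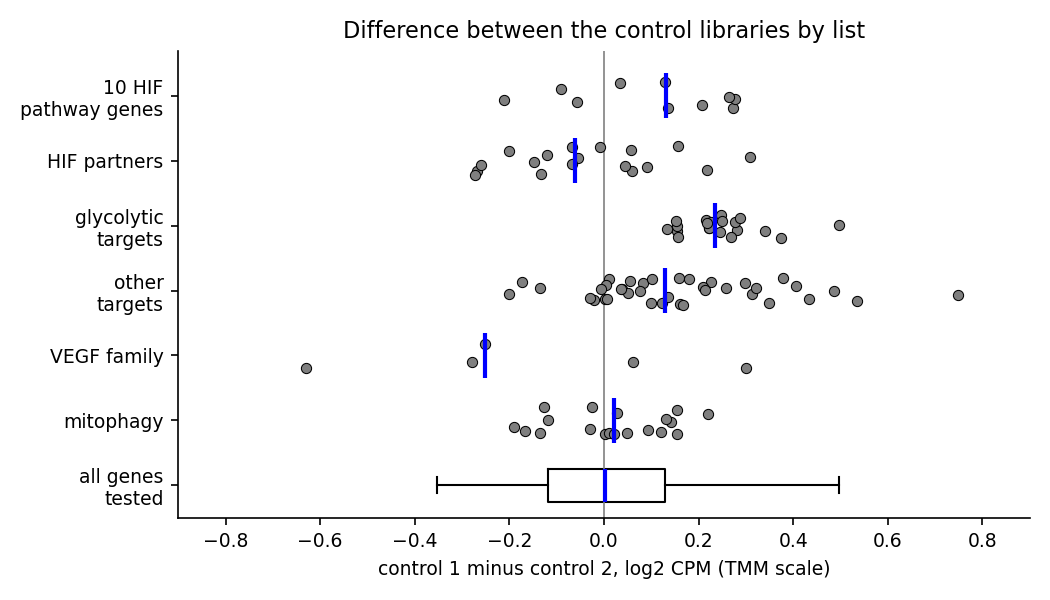
Control 1 minus control 2 in log2 CPM for each tested gene by list (blue lines are medians), above a box of all genes tested (quartiles, with whiskers at the 5th and 95th percentiles). The 20 glycolytic targets all lie to the right of 0, with a median of 0.24, while the median of all genes is 0.002.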

How the data were processed

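RNA-seq of 4 libraries was analysed from the deposited tables. The submitters' processing notes name Bowtie2, RSEM and the mm10 build. The sources used here give no versions, annotation release, library kit or strandedness. The authors' expected counts, per the file headers, are not normalized and were rounded to whole numbers for testing. The authors' FPKM values, per the file headers, were used as deposited for levels. A gene not listed in a library was set to 0. RSEM divides reads shared by several genes by estimation. Long non-coding RNA genes overlap *Hif1a* and *Egln1* and a pseudogene overlaps *Bnip3* in RefSeq, and without strand such reads cannot be told apart.

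The test was edgeR 4.0.16 in R 4.3.3 (TMM, filterByExpr, quasi-likelihood F test, no covariates, Benjamini-Hochberg over 12943 genes, called at 0.05). The SE of a log2 fold change is its size over the root of the F statistic. The code was tested on simulated data. The settings tried instead were library totals or median-of-ratios factors, no filter, a minimum of 5 CPM in 2 libraries, DESeq2 1.42.0, glmTreat against 1.5-fold, limma 3.58.1 on log2(FPKM + 1) with and without a filter of FPKM 1 in 2 libraries and on log2(FPKM + 0.1), a replicate block, leaving out each library, and, added after seeing the data, removal of each library's trend on GC content (GENCODE M21 transcripts, 89.5% of genes matched).

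The members and lists were chosen with earlier results of these data known. The text names, per list and direction, the 3 called genes that changed most, where the higher group's FPKM averaged at least 1; 1 gene that the rule names is not reported here. Named after their values were seen were *Rbx1*, *Cul2*, *Ep300*, *Cited2*, *Ldha*, *Pgk1*, *Slc2a1*, *Plod1*, *Plod2*, *P4ha1*, *P4ha2*, *Ddit4*, *Ndrg1*, *Car9*, *Ankrd37*, *Kdr*, *Nrp2*, *Flt1*, *Bnip3l*, *Gabarap*, *Gabarapl2*, *Siah1a*, *Gpi1*, *Aldoc*, *Sqstm1*, *Cd3g* and *Pdgfrb*. The same holds for *Itgam*, *Itgax*, *Mpeg1*, *Ly6g*, *Xcr1*, *Pdgfra*, *Col1a1*, *Col1a2* and *Calcoco2*. Promoter sequences are RefSeq's, GRCm38.p6.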

Additional observations from a re-analysis of the deposited data

How the results depend on the processing

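The 8 called genes kept their direction in all 15 alternatives each, and *Hif1a* and *Vhl* were called in every one. Against a 1.5-fold null (glmTreat), 2 of the 10 genes were higher and 0 lower, and the adjusted p was 0.344 for *Epas1* (log2 fold change 0.63), 0.685 for *Egln3* (0.57) and 1.0 for *Bnip3* (0.42), *Egln1* (0.27), *Vegfa* (-0.33) and *Egln2* (-0.49). Over all genes tested it called 3779, against 8884 in the reported test. Among the lists, 0 HIF partners were higher and 2 lower, 4 glycolytic targets higher and 2 lower, and 10 other targets higher and 5 lower. In the VEGF family 3 genes were higher and 0 lower, and 3 mitophagy genes were higher and 0 lower. That null asks for a larger change, so fewer calls follow from its construction.

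For the other settings the cause was not tested. With limma on FPKM, 1 of the 10 genes was lower at either pseudocount and 0 without the filter, where *Egln2* had a log2 fold change of -0.37. The log2 fold change of *Vegfa* was then -0.22 at a pseudocount of 1 with the filter (adjusted p = 0.0778) and without it (0.179), and -0.23 at 0.1 (0.0814). Without the count filter *Egln1* was not called (0.25), and on library totals *Arnt* was called (0.17). The sign of *Hif1an* turned on library totals (0.082), at 5 CPM (0.044), with limma (0.074 with and without the filter at a pseudocount of 1, 0.08 at 0.1) and without control 2. Glycolytic targets called higher were 11 on library totals and 11 at 5 CPM, and those called lower were 2 with unfiltered limma. The VEGF family had 2 higher at 5 CPM and 2 with filtered limma at either pseudocount, where 3 genes were tested. Mitophagy genes called lower were 3 with DESeq2, 3 with filtered limma at either pseudocount and 2 with unfiltered limma. Leaving out 1 library gave 5 to 6 of the 10 genes higher and 1 to 2 lower, 2 to 5 HIF partners higher, 6 to 11 glycolytic targets higher and 4 to 8 lower, and 3 to 5 mitophagy genes lower. The log2 fold changes then ranged from 0.17 to 0.38 for *Egln1*, from -0.47 to -0.20 for *Vegfa* and from -0.047 to 0.007 for *Hif1an*. In these fits the lone library of a group is assumed to vary like the other group. With either NaBu library left out, fewer of all genes tested were called as well. With the GC trend removed, *Egln2*, the gene with the highest GC content of the 10 (62.2%), had a log2 fold change of -0.84 and *Hif1a*, with the lowest (42.4%), 0.99, and 6 genes were higher and 2 lower.

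The libraries of the groups share replicate numbers, but nothing says that the numbers pair them, and the deviations of same-numbered libraries correlated at -0.031 across genes. With the replicate number as a block, 8853 genes were called against 8884, and the 10 genes had the same 6 higher and 2 lower calls, with log2 fold changes of 0.85 for *Hif1a* and -0.33 for *Vegfa*. Library totals moved the median log2 fold change of all genes from 0.005 to 0.102, and directions are relative to the TMM scale. Counts per gene limit, among others, *Cox4i2* (SE 0.515), *Calcoco2* (0.396), *Nrp2* (0.376), *Kdr* (0.32) and *Car9* (0.241). They limit *Hif3a* (0.135), *Flt4* (0.125) and *Nrp1* (0.107) less. Among the 10 genes *Epas1* had the fewest counts, 348.81 to 606.89 per library, with an SE (0.09) near that of *Vhl* (0.08).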
